A study of Drosophila melanogaster with 12 samples.

Results

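The translation initiation factor genes described here are all genes of *Drosophila melanogaster* whose symbol starts with eIF in the annotation of the array probes, with older names resolved to current symbols. Genes whose current symbol does not start with eIF, and which carry eIF only as a synonym, were not counted. There are 39 members among 12131 genes with a probe assigned to 1 symbol, and 38 have a value on at least 1 array. Total RNA from wing imaginal discs, the larval epithelial sacs that form the wing and the body wall around it, was compared on 12 two-color arrays. Mutant discs of 3 genotypes, w1118;+;ash2-I1, w1118;+;ash2-112411 and w1118;+;ash1-22/ash1-22-F2A, were each hybridized against the same pool of RNA from the isogenic reference line w1118;+;+, at the third larval instar. Each allele was represented by 2 RNA extractions, each on 2 arrays with Cy3 and Cy5 swapped. *ash2* and *ash1* encode trithorax group proteins, chromatin regulators that help to keep developmental genes active.

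All 3 mutant stocks carried chromosomes X, Y and 2 of the isogenic line, while chromosome 3, which carries the alleles, was their own. The alleles were kept over the balancer TM6c and larvae without its Tubby marker were taken. The study describes the discs of *ash2-I1* as small and abnormal in form, more so than those of the other alleles. In such bulk samples, fewer cells of a type and less RNA per cell cannot be told apart.

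Initiation factors bring the ribosome to the start codon of an mRNA. eIF2 carries the initiator tRNA and is recharged with GTP by eIF2B, while eIF1, eIF5 and eIF5B take part in start codon selection and in joining the ribosomal subunits. The multisubunit eIF3 is a scaffold on the small subunit. The cap is bound by eIF4E, which joins the scaffold eIF4G and the RNA helicase eIF4A, and eIF6 keeps the large subunit from joining too early. Growth of imaginal discs depends on protein synthesis, and this machinery is a common target of growth signaling.

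Values are log2 ratios of mutant over reference pool. In the limma fit a gene is said to have passed at an adjusted p under 0.05, and rose, fell, higher and lower are then used for its direction. Genes that also changed more than 1.5-fold, a log2 ratio of 0.58, are said to be called. Where the values of single arrays are given for an extraction, the array with the mutant in Cy5 comes before the array with the mutant in Cy3.

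The number of spots with a value per array ran from 7542 to 8007 for *ash2-I1*, from 10441 to 11179 for *ash2-112411* and from 5804 to 10747 for *ash1-22*. The targeted gene *ash2* had a log2 ratio of -1.75 ± 0.16 (SE, n = 2 extractions) in *ash2-I1* (adjusted p = 0.00022) and of -1.62 ± 0.16 in *ash2-112411* (adjusted p = 0.00028). Here and below the SE is that of the limma fit, whose spread is shared by the alleles, and not that of 1 allele's extractions. *ash2* had extraction means of -2.1 and -1.4 in *ash2-I1* and of -1.77 and -1.48 in *ash2-112411*. It was at 0.26 ± 0.16 in *ash1-22* (adjusted p = 0.3), where it was measured only on the arrays with the mutant in Cy3. *ash1* was not analysed here. Of the wing disc markers, 6 of 8 tested passed as lower in *ash2-I1* (median log2 ratio -0.83), 6 of 9 in *ash2-112411* (-0.69) and 5 of 9 in *ash1-22* (-0.33), and 0 as higher. Among muscle markers, 3 of 6, 7 of 10 and 3 of 9 passed as higher, and 1, 0 and 0 as lower. Of all genes tested, 17.9% passed as higher and 19.8% as lower in *ash2-I1*. In *ash2-112411* these shares were 24.0% and 26.3%, and in *ash1-22* 4.85% and 6.51%. The only fat body marker that passed was *Tsf1*, a transferrin, at 4.01, 3.51 and 1.81. The files hold ratios and no levels, and the part of these shifts in the values of the initiation factor genes was not tested.

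The initiation factor genes moved in different directions relative to the reference. In *ash2-I1*, 34 members were tested and 13 rose, against 17.9% of all genes tested, while 4 fell, against 19.8% of all genes. In *ash2-112411*, 38 were tested, of which 5 rose and 16 fell, against 24.0% and 26.3% of all genes. In *ash1-22*, 36 were tested, of which 3 rose and 3 fell, against 4.85% and 6.51%. The members of *ash2-I1* had a median log2 ratio of 0.21 against 0.02 for all genes tested. The corresponding medians were -0.08 against 0.00 in *ash2-112411* and 0.05 against 0.01 in *ash1-22*. The comparisons share the reference pool, so that any error of the pool enters all 3 of them.

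These counts depended on the settings and on the extractions. The median absolute deviation of an array ran from 0.277 to 0.382 in *ash2-I1*, 0.396 to 0.464 in *ash2-112411* and 0.197 to 0.252 in *ash1-22*. On a common scale for all arrays, 5 members rose and 9 fell in *ash1-22*. There 5 rose and 8 fell with the allele fitted alone, and 4 and 7 with the 4 arrays as replicates. Without extraction 1 of *ash2-I1*, 7 members rose and 5 fell in that allele, and 9 of the 17 that had passed did so again. *eIF2beta*, *eIF2Balpha*, *eIF2D*, *eIF1*, *eIF3c*, *eIF3d1*, *eIF3f1* and *eIF3g1* no longer passed, with adjusted p from 0.063 to 0.22. Without extraction 2, *eIF2beta*, *eIF2Balpha*, *eIF1* and *eIF4EHP* did not pass. For *ash2-112411* no member rose without its extraction 1 and 12 fell, and without its extraction 2 none rose and 7 fell, where limma gave 3 members above 0 at an unadjusted p under 0.05 in each case. On a common scale 0 rose and 9 fell there, with 3 above 0 at an unadjusted p under 0.05, and 1 rose and 7 fell with the 4 arrays as replicates. Leaving out either extraction of *ash1-22* gave 2 that rose and 15 that fell in *ash2-112411*. Of the 21 members that had passed there, those that did not pass whichever extraction of *ash2-112411* was left out were *eIF1*, *eIF2A*, *eIF2Bdelta*, *eIF3f2*, *eIF3i*, *eIF4A*, *eIF4E3*, *eIF4E5* and *eIF4G2*. Without extraction 2 of that allele, *eIF3c*, *eIF3g1*, *eIF3h*, *eIF3j* and *eIF4E1* did not pass either. For *ash1-22* no member passed in the limma fit without its extraction 1, with 3 above and 4 below 0 at an unadjusted p under 0.05, and none without its extraction 2, with 3 above and 2 below. Leaving out either extraction of *ash2-I1* gave 3 that rose and 5 that fell in *ash1-22*.

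Few members were called. In *ash2-I1* they were *eIF6*, *eIF3e* and *eIF3k*, which were higher, and *eIF4E1*, which was lower. All genes tested there were called at 5.45% higher and 6.73% lower. In *ash2-112411*, *eIF5* and *eIF3l* were called lower and no member was called higher, although 5 had passed without the fold threshold and 7 had an unadjusted p under 0.05 in that direction. With the mean of all probes of a gene, 3 members were called lower there. All genes tested in *ash2-112411* were called at 8.35% higher and 8.59% lower. In *ash1-22* no member was called in the limma fit, with 4 members above and 6 below 0 at an unadjusted p under 0.05, and 1.79% and 1.18% of all genes were called higher and lower. *eIF4E1* lay just under the 1.5-fold line there, at -0.58. With a common scale for the arrays of all alleles, 3 members were called higher and 2 lower in *ash1-22*. Without extraction 2 of *ash2-I1*, 5 members were called higher and 0 lower there, and without extraction 1 of *ash2-112411*, 6 were called lower there.

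**Figure D1:**
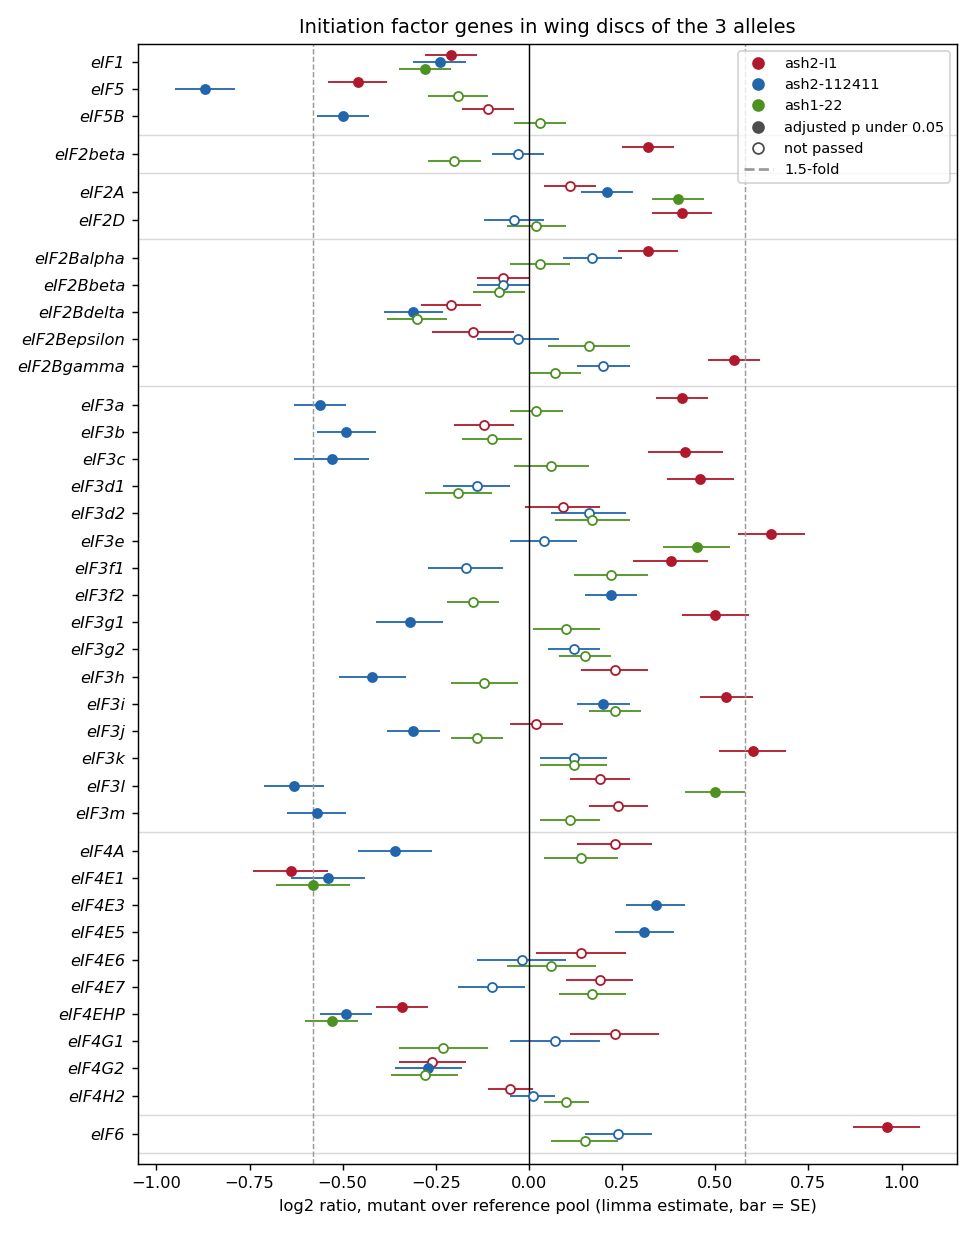
Log2 ratio of mutant over reference pool (x axis) for the 38 members with a value, ordered by factor complex (y axis). Points are limma estimates of the probe used, from 2 extractions per allele, and bars are their SE. Filled points passed at an adjusted p under 0.05 and dashed lines mark 1.5-fold. The *ash2-I1* points of most eIF3 genes lie right of 0 and those of *ash2-112411* left of 0 or near it, while *eIF1*, *eIF4E1* and *eIF4EHP* lie left of 0 in all alleles.

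eIF3 held 8 of the 17 members that passed in *ash2-I1*, where it was 14 of the 34 tested. In *ash2-112411* it held 10 of the 21 that passed and was 16 of the 38 tested. Of its 16 genes, 13 encode the subunits a to m, and *eIF3d2*, *eIF3f2* and *eIF3g2* are additional copies of d, f and g. Setting these copies aside is a choice made after the values were seen. Among the 13 genes, 8 rose and 0 fell in *ash2-I1*, against 17.9% and 19.8% of all genes, and their median log2 ratio was 0.41. In *ash2-112411*, 1 rose and 8 fell, against 24.0% and 26.3%, and their median was -0.32. In *ash1-22*, 2 rose and 0 fell, against 4.85% and 6.51%, and their median was 0.10. The count in *ash2-I1* was 4 without its extraction 1, and the count of genes that fell in *ash2-112411* was 4 without its extraction 2.

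*eIF3a*, *eIF3c* and *eIF3g1* rose in *ash2-I1* and fell in *ash2-112411*. *eIF3a*, the subunit on which much of the complex assembles, was at 0.50 and 0.40 on the arrays of extraction 1 of *ash2-I1* and at 0.42 and 0.34 on those of extraction 2. In *ash2-112411* it was at -0.69 and -0.38 and at -0.63 and -0.54. All 4 arrays of the one allele thus lay above 0 and all 4 of the other below. The fitted ratios were 0.41 ± 0.07 (adjusted p = 0.0027) and -0.56 ± 0.07 (adjusted p = 0.00058), and in *ash1-22* the value was 0.02 ± 0.07, with arrays from -0.11 to 0.11.

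*eIF3c*, a core subunit that contacts eIF1 and eIF5, was at 0.37 and 0.76 and at 0.31 and 0.24 in the extractions of *ash2-I1*. In *ash2-112411* it was at -0.60 and -0.25 and at -0.79 and -0.50. Again the alleles did not overlap on any array, and the fitted ratios were 0.42 ± 0.10 (adjusted p = 0.012) and -0.53 ± 0.10 (adjusted p = 0.0031). *eIF3g1*, an RNA-binding subunit, was at 0.47 and 0.78 and at 0.52 and 0.21 in *ash2-I1*, and at -0.05 and -0.36 and at -0.34 and -0.53 in *ash2-112411*. Its lowest value in *ash2-I1* thus lay above its highest in *ash2-112411*. The fitted ratios were 0.50 ± 0.09 (adjusted p = 0.0047) and -0.32 ± 0.09 (adjusted p = 0.022). The fall in *ash2-112411* did not pass on a common scale for all arrays. Without extraction 1 of *ash2-I1* the rises were 0.27 (adjusted p = 0.13) for *eIF3c* and 0.37 (0.063) for *eIF3g1*, and without extraction 2 of *ash2-112411* the falls were -0.42 (0.051) and -0.20 (0.24).

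*eIF3e*, known as *Int6* after the mouse mammary tumor virus integration site, had the highest ratio of the complex in *ash2-I1*. Its arrays read 1.40 and 0.22 in extraction 1 and 0.66 and 0.33 in extraction 2, and the array with 1.40 stood far above the others. The fitted ratio was 0.65 ± 0.09 (adjusted p = 0.0013), a 1.57-fold rise, and in *ash1-22* it was 0.45 ± 0.09 (adjusted p = 0.022). In *ash2-112411* it was 0.04 ± 0.09, with both arrays in Cy5 above 0 and both in Cy3 below. *eIF3k*, a peripheral subunit, was at 0.50 and 0.57 and at 0.49 and 0.83 in *ash2-I1*, which were 4 similar values. They gave 0.60 ± 0.09 (adjusted p = 0.0017), a 1.51-fold rise, whereas *ash2-112411* and *ash1-22* were each at 0.12 ± 0.09 and did not pass.

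*eIF3d1*, the subunit with cap-binding activity in mammals, rose in *ash2-I1* at 0.46 ± 0.09, and so did *eIF3f1*, an MPN-domain subunit, at 0.38 ± 0.10. Neither passed in the other alleles. Without extraction 1 of *ash2-I1* they were at 0.28 (adjusted p = 0.077) and 0.16 (adjusted p = 0.22), and *eIF3f1* did not pass with the 4 arrays as replicates or with the allele fitted alone. *eIF3i*, a WD-repeat subunit, rose in both *ash2* alleles, at 0.53 ± 0.07 and 0.20 ± 0.07, and was positive on 11 of 12 arrays. Its rise in *ash2-112411* (adjusted p = 0.0466) did not pass when the allele was fitted alone or without either of its extractions.

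Within eIF3, subunits l and m showed the largest differences between dyes in *ash2-I1*. *eIF3l* was at -0.42 and 1.03 in extraction 1 of *ash2-I1* and at -0.55 and 0.68 in extraction 2. It was thus below 0 with the mutant in Cy5 and above 0 in Cy3, and its mean of 0.19 ± 0.08 did not pass. In *ash2-112411* it was at -1.32 and 0.08 and at -0.91 and -0.38, lower in Cy5 again, with a mean of -0.63 ± 0.08 (adjusted p = 0.00068), a 1.55-fold fall. With the 4 arrays taken as replicates this fall did not pass. In *ash1-22* the dyes were alike, with 0.51 and 0.53 and with 0.40 and 0.58, and *eIF3l* rose at 0.50 ± 0.08 (adjusted p = 0.012). *eIF3m* behaved similarly, at -0.42 and 1.05 and at -0.44 and 0.76 in *ash2-I1*. It fell in *ash2-112411* at -0.57 ± 0.08 and was at 0.11 ± 0.08 in *ash1-22*.

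*eIF3b*, *eIF3h* and *eIF3j* fell in *ash2-112411*, at -0.49 ± 0.08, -0.42 ± 0.09 and -0.31 ± 0.07, and did not pass in the other alleles. The b subunit, an RNA-recognition protein that binds subunits g and i, has a further probe. There the arrays of *ash2-112411* were all between -1.71 and -0.92, and the limma fit gave -1.36 ± 0.13 (adjusted p = 0.00024). The probes of *eIF3b* differed in size but not in direction in that allele. For *eIF3h* the arrays of *ash2-112411* with the mutant in Cy5 had a mean above 0 and those in Cy3 a mean below. The copies *eIF3d2*, *eIF3f2* and *eIF3g2* were between 0.12 and 0.22 in *ash2-112411*, where only *eIF3f2* passed, on 2 arrays of the same dye, and *eIF3f2* and *eIF3g2* had no tested value in *ash2-I1*.

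**Figure D2:**
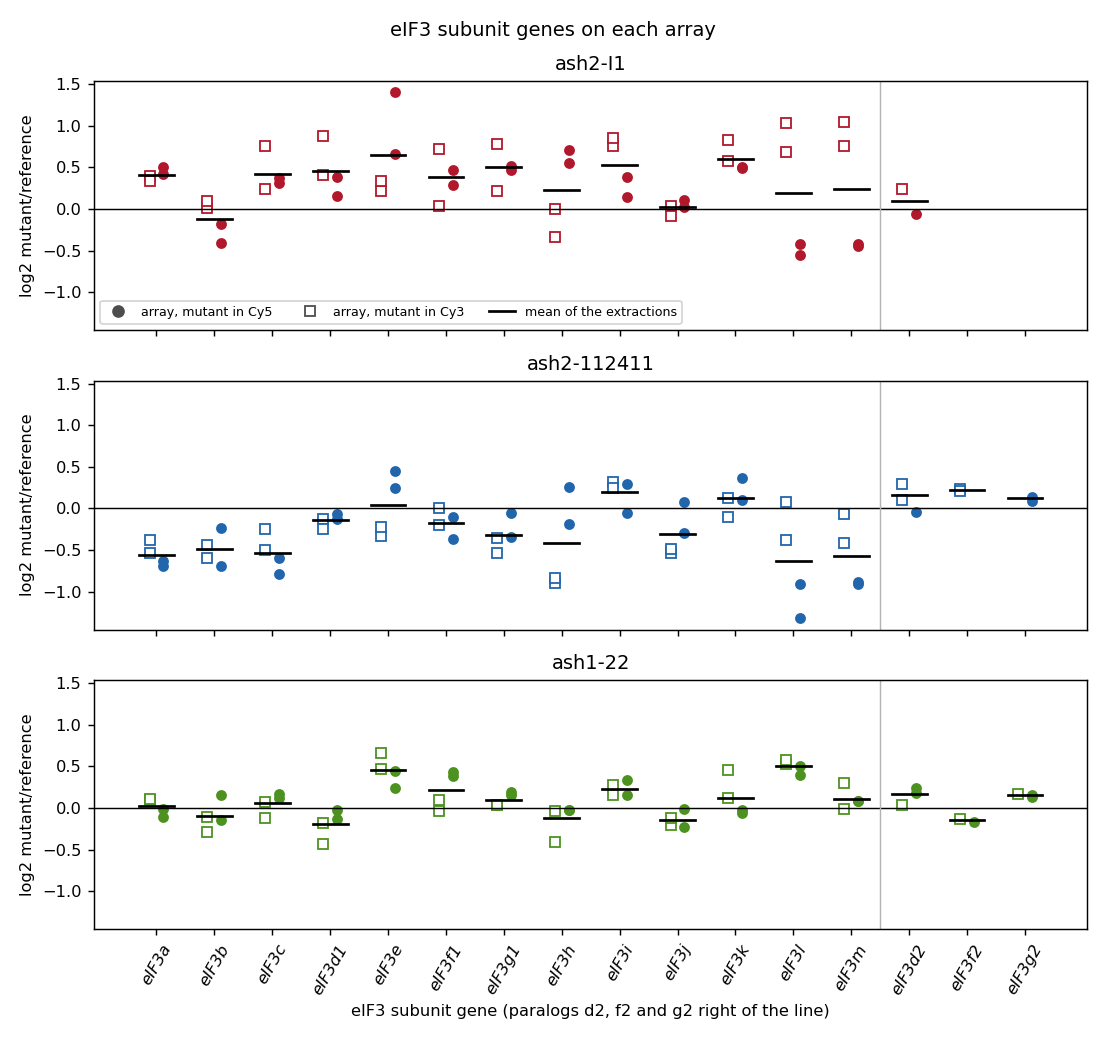
Log2 ratio on each array (y axis) for the 16 eIF3 genes (x axis), 1 panel per allele. Filled circles are arrays with the mutant in Cy5, open squares arrays with the mutant in Cy3, and lines the mean over the 2 extractions. The circles and squares of *eIF3l* and *eIF3m* are far apart in *ash2-I1*, from -0.55 to 1.05, and those of *eIF3a* are close together, from 0.34 to 0.50.

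The difference between the 2 *ash2* alleles was tested as a contrast of the same fit. Of 34 members tested, 19 had the higher ratio in *ash2-I1* and 0 in *ash2-112411*, where 20.0% of all genes were higher and 12.1% lower. The median difference was 0.35 over the members and 0.10 over all genes tested. For the 13 eIF3 genes a to m, 12 passed, all with the higher ratio in *ash2-I1*, and the 13 differences ranged from 0.33 to 0.98 with a median of 0.61. The gene that did not pass was *eIF3b*, at 0.37 ± 0.12 (adjusted p = 0.0503), and its further probe gave 1.01 ± 0.18 (adjusted p = 0.0081). Leaving out 1 extraction of an *ash2* allele left between 6 and 9 of the 13: 6 without *ash2-I1* extraction 1, 9 without *ash2-I1* extraction 2, 8 without *ash2-112411* extraction 1 and 6 without *ash2-112411* extraction 2. With the 4 arrays as replicates 6 passed, and 13 did with a term for the dye.

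Over all members, 7 and 12 passed without extractions 1 and 2 of *ash2-I1*, and 11 and 8 without those of *ash2-112411*. All of these were among the 19.

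Differences above 1.5-fold concerned 10 members, all higher in *ash2-I1*, where 7.91% of all genes were higher and 6.24% lower by this rule. They were largest for *eIF3a* (0.98 ± 0.09, adjusted p = 0.0026) and *eIF3c* (0.95 ± 0.14, adjusted p = 0.0045). *eIF3g1*, *eIF3l* and *eIF3m* followed, at 0.82, 0.82 and 0.80, and *eIF3h*, *eIF3e* and *eIF3d1* were at 0.65, 0.61 and 0.60. Outside eIF3 they were *eIF6*, at 0.72 ± 0.13, and *eIF4A*, at 0.60 ± 0.14. The value of *eIF4A* was that of 1 spot, and over the 10 spots tested in both alleles the difference ran from 0.10 to 0.78 with a median of 0.32, and 3 passed. It was 0.10 to 0.23 on spots with only Cy5 values in *ash2-112411* and 0.41 to 0.78 on those with a Cy3 value too. On the single arrays, 26 members were measured on all 4 arrays of both alleles. In 7 of them every *ash2-I1* array was above every *ash2-112411* array, where this held for 17.6% of all such genes, and in 0 the reverse, which held for 8.09%. These were *eIF3a*, *eIF3c*, *eIF3d1*, *eIF3f1*, *eIF3g1*, *eIF3k* and *eIF5*.

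**Figure D3:**
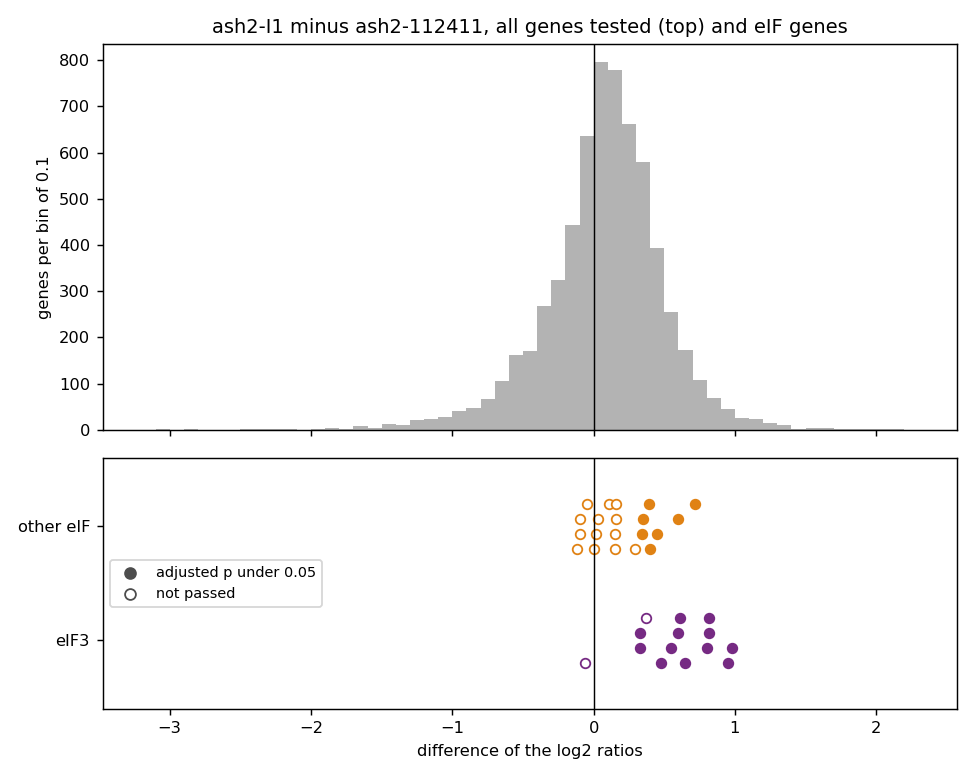
Difference of the log2 ratios, *ash2-I1* minus *ash2-112411* (x axis), as a histogram of all 6348 genes tested (upper panel, genes per bin on the y axis) and as points for the 14 eIF3 genes and the 20 other members tested in both alleles. Filled points passed at an adjusted p under 0.05. All filled points lie right of 0, and the eIF3 points apart from *eIF3d2* lie between 0.33 and 0.98.

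Differences from *ash1-22* were fewer. *ash2-I1* was higher than *ash1-22* in 7 of 34 members and lower in 0, where 11.8% and 11.2% of all genes passed, and *eIF6* (0.81 ± 0.13, adjusted p = 0.0052) and *eIF3d1* (0.65 ± 0.13, adjusted p = 0.013) exceeded 1.5-fold, which 6.10% of all genes did as higher and 6.26% as lower. *ash2-112411* was higher than *ash1-22* in 1 of 36 members and lower in 10, where 12.5% and 14.6% of all genes passed. The higher one was *eIF3f2* (0.37 ± 0.10, adjusted p = 0.038 in the limma contrast). It was measured in *ash2-112411* only with the mutant in Cy3, and in *ash1-22* on 1 array of each dye. The members beyond 1.5-fold, where 6.27% of all genes were higher and 5.42% lower, were *eIF3l* (-1.13 ± 0.11, adjusted p = 0.0029), *eIF3m* (-0.68 ± 0.12, adjusted p = 0.0089), *eIF5* (-0.67 ± 0.12, adjusted p = 0.0096) and *eIF3c* (-0.59 ± 0.14, adjusted p = 0.02). These counts depended on single extractions. Between *ash2-I1* and *ash1-22*, 2 members were higher and 1 lower without extraction 1 of *ash2-I1*, 9 were higher without its extraction 2, and 1 was higher without either extraction of *ash1-22*. Between *ash2-112411* and *ash1-22*, no member was higher and 7 and 5 were lower without extractions 1 and 2 of *ash2-112411*, and 3 and 1 without those of *ash1-22*.

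Among the factors of start codon selection and subunit joining, *eIF5* activates the GTPase of eIF2. On the probes used, it had the lowest ratio of all members in *ash2-112411*. Its arrays read -0.67 and -0.79 in extraction 1 and -1.04 and -0.97 in extraction 2. The fitted ratio was -0.87 ± 0.08 (adjusted p = 0.0003), a 1.82-fold fall. In *ash2-I1* the arrays read -0.41 and -0.48 and -0.46 and -0.51, a narrow range around -0.46 ± 0.08 (adjusted p = 0.0047). In *ash1-22* they were between -0.48 and -0.04 and the fitted -0.19 ± 0.08 did not pass. On the probes used, *eIF5* and *eIF4E1* were the 2 members below 0 on all 12 arrays, of 23 measured on all of them. A further probe of *eIF4E1* was between -0.02 and 0.16 on the arrays of *ash2-I1*.

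*eIF5B*, the GTPase that joins the ribosomal subunits, fell in *ash2-112411* at -0.50 ± 0.07 (adjusted p = 0.0012) and was at -0.11 ± 0.07 in *ash2-I1* and 0.03 ± 0.07 in *ash1-22*. *eIF1*, which guards the fidelity of start codon choice, fell in all 3 alleles by similar amounts, at -0.21 ± 0.07, -0.24 ± 0.07 and -0.28 ± 0.07. The adjusted p values were 0.0498, 0.022 and 0.045. The value in *ash2-I1* did not pass with that allele fitted alone or with the 4 arrays as replicates. Nor did it pass on a common scale or with the extraction number as a replicate block. With the mutant in Cy5 its mean was -0.07 in *ash2-I1* and -0.04 in *ash2-112411*, against -0.35 and -0.44 in Cy3. In *ash1-22* it was -0.28 in each dye. *eIF1A* was not analysed here.

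*eIF2beta* was the only subunit of eIF2 analysed here. It rose in *ash2-I1*, at 0.32 ± 0.07 (adjusted p = 0.013), and was at -0.03 and -0.20 in *ash2-112411* and *ash1-22*. Of eIF2B, the exchange factor of eIF2, *eIF2Bgamma* and *eIF2Balpha* rose in *ash2-I1*, at 0.55 ± 0.07 (adjusted p = 0.0013) and 0.32 ± 0.08 (adjusted p = 0.021). *eIF2Bdelta* was the lowest member of this complex in each allele, at -0.21, -0.31 and -0.30, and passed only in *ash2-112411*. The catalytic subunit *eIF2Bepsilon*, at -0.15, -0.03 and 0.16, and *eIF2Bbeta*, at -0.07, -0.07 and -0.08, passed nowhere. The 5 subunits of eIF2B thus had a median of -0.07 in *ash2-I1*. Of the factors that can deliver tRNA without eIF2, *eIF2A* rose in *ash1-22* (0.40 ± 0.07, adjusted p = 0.018) and in *ash2-112411* (0.21 ± 0.07, adjusted p = 0.041). *eIF2D* rose in *ash2-I1* at 0.41 ± 0.08. The dye orientations of *eIF2D* in *ash2-I1* and of *eIF2A* in *ash2-112411* had means of opposite sign.

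In the cap-binding group, *eIF4E1*, the main cap-binding protein, was the lowest member in *ash2-I1*. The arrays read -0.68 and -0.36 and -0.66 and -0.86 there, -0.54 and -0.19 and -1.15 and -0.30 in *ash2-112411*, and -0.64 and -0.50 and -0.75 and -0.43 in *ash1-22*. All were below 0, and the ranges of the alleles overlapped. The fitted ratios were -0.64 ± 0.10, -0.54 ± 0.10 and -0.58 ± 0.10 (adjusted p = 0.0027, 0.004 and 0.017). The gene has a further probe, also measured on every array, and it gave 0.07 ± 0.09 in *ash2-I1*. Its values for *ash2-112411* and *ash1-22* were -0.53 ± 0.09 and -0.20 ± 0.09. The probes thus disagreed in *ash2-I1*, where the mean of both was -0.28. *eIF4E1* was not called lower in *ash2-I1* from that mean.

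*eIF4EHP*, a cap-binding protein that represses translation because it does not join eIF4G, fell in all alleles. It was at -0.41 and -0.17 in extraction 1 of *ash2-I1* and at -0.40 on the only array with a value in extraction 2. In *ash1-22* it was at -0.57 and -0.51 and at -0.40 and -0.62. The fitted ratio was -0.34 ± 0.07 in *ash2-I1* (adjusted p = 0.0085). It was -0.49 ± 0.07 for *ash2-112411* (adjusted p = 0.0013) and -0.53 ± 0.07 for *ash1-22* (adjusted p = 0.0072). It was the lowest member after *eIF4E1* in *ash1-22*. The differences between the alleles did not pass for *eIF1*, *eIF4EHP* or the *eIF4E1* probe used, and the largest of them was 0.18 ± 0.10, for *eIF4EHP* between *ash2-I1* and *ash1-22*. On the further probe of *eIF4E1* the difference between *ash2-I1* and *ash2-112411* was 0.61 ± 0.12 (adjusted p = 0.013).

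*eIF4A*, the helicase that unwinds the leader of the mRNA, was printed as 17 spots and had the widest spread between dyes. On the spot used it was at 1.35 and -0.49 and at 0.51 and -0.43 in *ash2-I1*, and at 0.19 and -0.97 and at 0.12 and -0.79 in *ash2-112411*. Both alleles were higher with the mutant in Cy5. The fitted ratio was 0.23 ± 0.10 in *ash2-I1* and -0.36 ± 0.10 in *ash2-112411* (adjusted p = 0.019). Over all spots tested in *ash2-112411*, which were 10, the fits ran from -0.65 to 0.17 with a median of -0.09, and 3 passed. In *ash2-I1* 16 spots gave a median of 0.17 and 1 passed, and in *ash1-22* 17 spots lay between 0.03 and 0.16 and 0 passed. In *ash2-112411* the spots with values only on arrays with the mutant in Cy5 were fitted between -0.05 and 0.17. Those with a value in Cy3 as well were fitted between -0.65 and -0.14. The fall of *eIF4A* in *ash2-112411*, and with it the difference between the *ash2* alleles, thus differed between spots with and without a Cy3 value.

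Neither scaffold gene changed by more than 1.5-fold in any allele. *eIF4G1* was at 0.23, 0.07 and -0.23, each ± 0.12, and passed nowhere. *eIF4G2*, a copy with a role in male meiosis, was at -0.26, -0.27 and -0.28, each ± 0.09, and passed only in *ash2-112411* (adjusted p = 0.036). Of the further eIF4E genes, *eIF4E3*, which acts in spermatogenesis, and *eIF4E5* rose in *ash2-112411* at 0.34 ± 0.08 and 0.31 ± 0.08, each on 3 of 4 arrays, and had no tested value in the other alleles. *eIF4E6*, *eIF4E7* and *eIF4H2* lay between -0.10 and 0.19 and did not pass, and *eIF4E4* had no value. Among testis markers, of which 4, 6 and 5 were tested in *ash2-I1*, *ash2-112411* and *ash1-22*, 1, 3 and 0 passed as higher and 1, 1 and 0 as lower. Of all genes tested in these alleles, 17.9%, 24.0% and 4.85% passed as higher and 19.8%, 26.3% and 6.51% as lower. The part of the testis markers in the values of the eIF4 copies was not tested.

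*eIF6* was the member with the highest ratio of all. In *ash2-I1* its arrays read 1.26 and 0.94 in extraction 1 and 1.12 and 0.52 in extraction 2. All were above those of *ash1-22*, which lay between 0.08 and 0.24, and the lowest was below the highest of *ash2-112411*, at 0.58. The fitted ratio was 0.96 ± 0.09 in *ash2-I1* (adjusted p = 0.00026), a 1.94-fold rise. In *ash2-112411* it was 0.24 ± 0.09 (adjusted p = 0.056) and in *ash1-22* 0.15 ± 0.09 (adjusted p = 0.29), and neither passed. It was called in *ash2-I1* under each alternative run, including without either extraction, with values from 0.82 to 1.10.

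**Figure D4:**
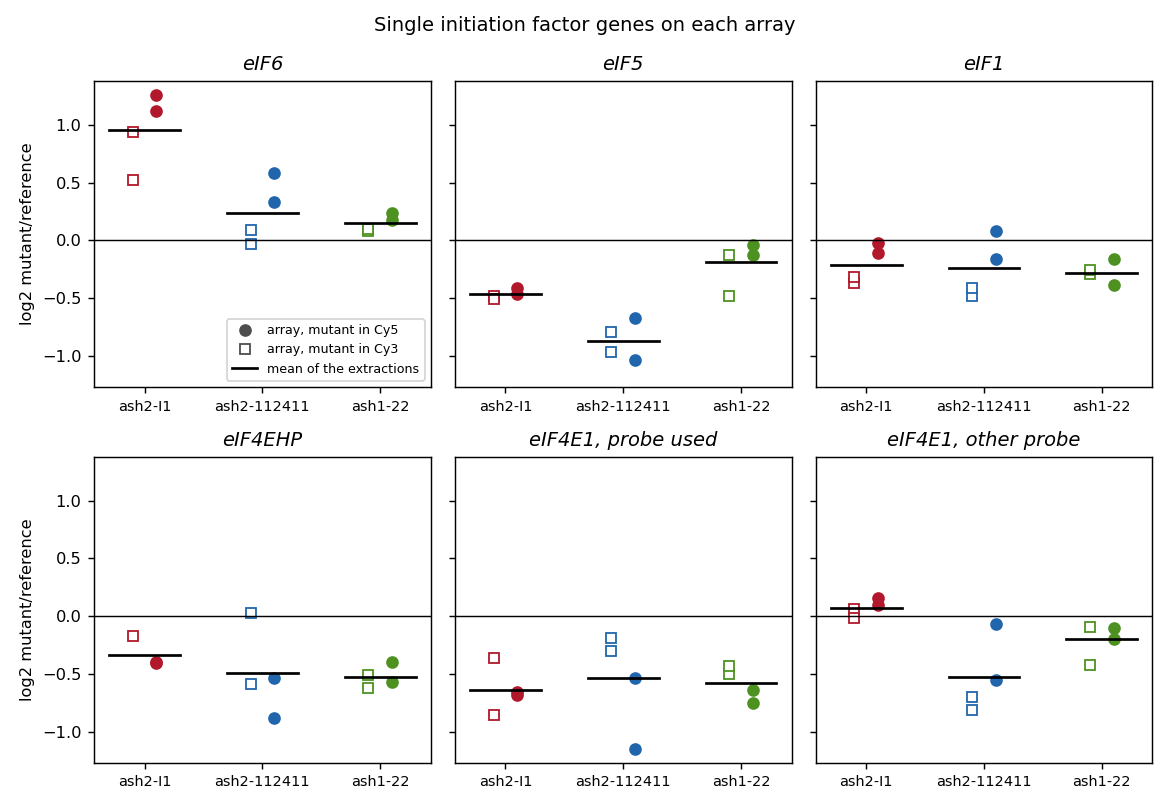
Log2 ratio on each array (y axis) in the 3 alleles (x axis) for *eIF6*, *eIF5*, *eIF1*, *eIF4EHP* and both probes of *eIF4E1*. Circles are arrays with the mutant in Cy5, squares arrays with the mutant in Cy3, and lines the mean over the 2 extractions. *eIF6* stands apart in *ash2-I1*, and the further probe of *eIF4E1* lies near 0 in *ash2-I1*, between -0.02 and 0.16.

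By chromosome, 21 of the members lie on chromosome 3, which the mutants did not receive from the reference line, and 18 on other chromosomes. In *ash2-I1*, 7 of 17 tested on chromosome 3 rose and 3 fell, and 6 of 17 on the others rose and 1 fell. Of all genes tested there, 19.6% rose and 20.6% fell on chromosome 3 and 17.2% and 20.1% elsewhere. In *ash2-112411*, 3 of 20 rose and 7 fell on chromosome 3, against 2 and 9 of 18 on the others, where the shares of all genes were 24.6% and 26.9% on chromosome 3 and 23.6% and 26.9% elsewhere. The higher ratio in *ash2-I1* than in *ash2-112411* passed for 8 of 17 members on chromosome 3 and for 11 of 17 on the others, and for 21.1% and 19.6% of all genes. In *ash1-22* all 6 members that passed lie on chromosome 3, of 18 tested there and 18 elsewhere. Of all genes, 13.2% on chromosome 3 and 10.3% elsewhere passed in either direction. In the limma fit, 1 member elsewhere lay above 0 and 1 below at an unadjusted p under 0.05. With the allele fitted alone 7 further members passed, of which *eIF2Bdelta*, *eIF3i* and *eIF4G1* lie on other chromosomes. The part of the background on chromosome 3 in the count of 6 was not tested.

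Genes that carry eIF only as a synonym are not members. *eEF5*, once called eIF-5A, fell in *ash2-112411* at -0.39 ± 0.07 (adjusted p = 0.0039) and was at -0.16 and -0.08 in *ash2-I1* and *ash1-22*. *CG7483*, the helicase eIF4AIII of the exon junction complex, was at 0.07, -0.08 and -0.21 in *ash2-I1*, *ash2-112411* and *ash1-22* and did not pass. *kra*, a relative of eIF5, rose in *ash2-112411* at 0.26 ± 0.07 (adjusted p = 0.026) and was at 0.07 ± 0.07 in *ash1-22*.

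Of 17 regulators of initiation listed, 14 have a probe assigned to 1 symbol in the annotation used here. *Thor*, *Tor* and *pix* do not, and they were not analysed here. The study itself lists *Thor* among the genes misexpressed in *ash2* and *ash1* mutants, so its absence here does not mean that the array lacked it. In *ash2-I1*, 11 were tested, of which 1 rose and 6 fell. For *ash2-112411* the counts were 1 and 9 of 14, and for *ash1-22* 0 and 2 of 12. Of all genes tested, 17.9% rose and 19.8% fell in *ash2-I1*, 24.0% and 26.3% in *ash2-112411*, and 4.85% and 6.51% in *ash1-22*. *pAbp*, the poly(A)-binding protein that joins eIF4G, was called lower in both *ash2* alleles, at -0.71 ± 0.11 and -0.80 ± 0.11, and was at -0.07 ± 0.11 in *ash1-22*. *NAT1*, an eIF4G relative without the cap-binding arm, was at -0.58 ± 0.09 and, called lower, at -0.92 ± 0.09 in *ash2-I1* and *ash2-112411*. The helicase *bel* (-0.97 ± 0.09), *crc*, the fly ATF4 whose mRNA is translated when eIF2 is phosphorylated (-0.93 ± 0.09), and the repressor *me31B* (-0.75 ± 0.10) were also called lower in *ash2-112411*. So were *S6k*, the ribosomal protein S6 kinase (-0.66 ± 0.10), and *Paip2*, an inhibitor of poly(A)-binding protein (-0.61 ± 0.09). *PEK*, a kinase of eIF2, rose in *ash2-I1* at 0.28 ± 0.08, and *MCTS1*, a reinitiation factor, rose in *ash2-112411* at 0.54 ± 0.09. *DENR*, the partner of MCTS1, fell in both *ash2* alleles, at -0.30 ± 0.07 and -0.32 ± 0.07. The regulators that passed in *ash1-22* were *NAT1*, at -0.36 ± 0.09 (adjusted p = 0.0469), and *DENR*, at -0.27 ± 0.07 (adjusted p = 0.0499).

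Of 8 elongation and release factors tested, 2 fell and 1 rose in *ash2-I1*. For *ash2-112411* the counts were 5 and 0, and for *ash1-22* 1 and 0. The shares of all genes that fell and rose were 19.8% and 17.9%, 26.3% and 24.0%, and 6.51% and 4.85% in these alleles. *HBS1*, which rescues stalled ribosomes, was called higher in *ash2-I1* at 0.93 ± 0.07 (adjusted p = 0.00012) and was at -0.11 ± 0.07 in *ash2-112411*. The release factors *eRF3* and *eRF1* were called lower in *ash2-112411*, at -0.81 ± 0.08 and -0.59 ± 0.11. Of the aminoacyl-tRNA synthetases, which charge tRNAs, 17 were tested in *ash2-I1*, where 3 rose and 1 fell, and 18 in *ash2-112411*, where 2 rose and 11 fell. The difference between the *ash2* alleles passed for 11 of 17 synthetases, all higher in *ash2-I1*, where 20.0% of all genes were higher. Its median was 0.51 over the synthetases and 0.10 over all genes tested. A higher ratio in *ash2-I1* was thus not particular to the initiation factors.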

How the data were processed

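By the study's methods, the authors scanned the arrays with GenePix Pro, dropped spots of poor quality, used normexp for the background and OLIN within arrays, and scaled each set of 4 arrays by its median absolute deviation. The deposited log2 values are ratios of Cy5 over Cy3, and the sign was turned where the mutant RNA was labelled with Cy3. They were not scaled across alleles.

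Of 16416 spots, 14258 had a value, and 13164 probes carried 1 symbol, while 101 with several were left out. Chromosomes are those of the RefSeq annotation (Release 6). A gene was represented by its probe on the most arrays. After averaging both arrays of each extraction, limma 3.58.1 (R 4.3.3) was fitted to 6 extractions and 11610 probes, each allele against 0, with the spread shared by the alleles. A probe was tested in an allele where both extractions had a value. P values were two-sided and adjusted by Benjamini and Hochberg's method over all probes. The pool is 1 control sample, so its own spread is in no SE, and p values measure the spread between extractions. The fit was tested on simulated data. Members and lists were chosen with earlier results of these data known. Named genes were members called, or differing between alleles by more than 1.5-fold, the extremes of each complex, and called genes of the regulator, elongation and release lists. Other genes were named for context after their values were seen.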

Additional observations from a re-analysis of the deposited data

Results flagged for a closer look

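The effects of 2 alleles differed by more than 1.5-fold at an adjusted p under 0.05 of the limma contrast in 16 cases. *ash2-I1* exceeded *ash2-112411* in *eIF3a* by a log2 difference of 0.98, *eIF3c* by 0.95, *eIF3d1* by 0.60, *eIF3e* by 0.61, *eIF3g1* by 0.82, *eIF3h* by 0.65, *eIF3l* by 0.82, *eIF3m* by 0.80, *eIF4A* by 0.60 and *eIF6* by 0.72. *ash2-I1* exceeded *ash1-22* in *eIF3d1* by 0.65 and in *eIF6* by 0.81. *ash2-112411* minus *ash1-22* was -0.59 for *eIF3c*, -1.13 for *eIF3l*, -0.68 for *eIF3m* and -0.67 for *eIF5*. Groups of 2 extractions are too small for the test of a single outlying sample.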

How the results depend on the processing

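Precision is limited by the number of arrays, 4 per allele from 2 extractions, and how far spots stood above background cannot be read from the ratios. The count of members called higher in *ash2-I1* was 3, and 13 at an adjusted p alone, and ran from 2 to 5 without 1 extraction. The count called lower was 1, and 4 at an adjusted p alone, 0 with the mean of all probes of a gene, and 0 to 1 without 1 extraction. In *ash2-112411*, 5 were higher and 16 lower at an adjusted p alone. The count called lower, 2, was 1 with the 4 arrays as replicates and 1 on a common scale, and 2 to 6 without 1 extraction. In *ash1-22*, 3 were higher and 3 lower at an adjusted p alone, and 3 and 2 were called on a common scale. The median of -0.08 in *ash2-112411* was -0.05 with each array centred, -0.26 over genes measured on all 4 arrays, which were 30 of the 38, and -0.13 to -0.08 without 1 extraction. The median of 0.05 in *ash1-22* was 0.07 on a common scale and 0.03 over genes on all 4 arrays.

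The count of members that differed between *ash2-I1* and *ash2-112411*, 19, was 8 with the 4 arrays as replicates and 11 on a common scale, and 7 to 13 without 1 extraction. Between *ash2-I1* and *ash1-22* it was 7, then 11 on a common scale, 15 with a dye term and 1 to 9 without 1 extraction. Between *ash2-112411* and *ash1-22* it was 11, then 6 with the 4 arrays as replicates, 5 on a common scale, 7 with arrays centred and 1 to 11 without 1 extraction. The cause of these changes was not tested. Where 1 extraction was left out, the remaining one was assumed to vary like the other groups. Deviations of same-numbered extractions correlated over the probes at 0.0907, -0.0459 and -0.134. With 2 extractions per allele, these values cannot show whether the numbers pair extractions across alleles. With the extraction number as a replicate block, the differing members were 15, 6 and 9, the called counts stayed at 3 and 1, 0 and 2, and 0 and 0, and the medians at 0.21, -0.08 and 0.05. No ratio of a member changed sign under an alternative in any comparison where it had passed.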
